A study of Mus musculus with 2 samples.

Results

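Voltage-gated calcium channels are assembled from a pore-forming α1 subunit and the accessory α2δ and β subunits. The 10 genes described here encode 5 α1 subunits (Cacna1a, Cacna1b, Cacna1c, Cacna1d and Cacna1e), 3 α2δ subunits (Cacna2d1, Cacna2d2 and Cacna2d3) and 2 β subunits (Cacnb2 and Cacnb4). They are 10 of the 21523 coding genes used, and were examined for peaks of H3K9me2 (dimethylated lysine 9 of histone H3) that overlapped the gene body extended by 2 kb on both sides. Of 743 peaks in the wild-type list 4 lay in these genes, and of 6253 peaks in the transgenic list 20. The genes were chosen by these peaks, that is, with their peak counts and folds in both lists known, so the counts per gene are a description. Surroundings of 500 kb on either side, which the choice did not use, are given for context.

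The libraries were made from C57BL/6 embryonic cortex collected on embryonic day 15.5, 1 from wild-type embryos and 1 from embryos carrying TBC1D3, a hominoid gene, as a transgene. What drives the transgene and how many embryos went into a library are not given in the sources used here. The wild-type list rests on 26735120 ChIP tags and the transgenic list on 20697113. With 1 library per genotype there is no replicate, no test between genotypes was made, and all intervals cover counting error only. Both lists are weak: no wild-type peak had a q below 0.136 and no transgenic peak one below 0.0673. In the transgenic list 502 peaks share that lowest q, and in the wild-type list 708 peaks have a q of 1. The peaks come from whole tissue and measure no expression, so neither the cortical cell types nor the activity of the channel genes can be read from them.

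When the membrane depolarises, the α1 subunit opens and lets calcium into the cell. L-type channels couple electrical activity to gene expression, and P/Q-, N- and R-type channels trigger transmitter release. The α2δ subunits lie outside the membrane, promote trafficking of the channel and act in synapse formation. The β subunits bind the α1 subunit from the cytoplasm and help to bring it to the surface. H3K9me2 is a repressive mark laid down largely by G9a and GLP, and the series title pairs G9a with TBC1D3.

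No peak of either list lay in an annotated promoter window of the channel genes. Windows were held for 9 of the 10 genes (all but Cacna1a), 15 windows in all, taken from RefSeq (GRCm38.p6). The 250 bases before the start site are shown for 4 genes, 5′ to 3′ on the gene's strand, with every CG in capitals. Cacna2d3 and Cacna1e are shown because they hold most of the peaks, Cacna1d because both libraries have a peak there, and Cacna2d1 because it is a long gene with no peak.
Cacna2d3, chr14:29721865-29722114, minus strand: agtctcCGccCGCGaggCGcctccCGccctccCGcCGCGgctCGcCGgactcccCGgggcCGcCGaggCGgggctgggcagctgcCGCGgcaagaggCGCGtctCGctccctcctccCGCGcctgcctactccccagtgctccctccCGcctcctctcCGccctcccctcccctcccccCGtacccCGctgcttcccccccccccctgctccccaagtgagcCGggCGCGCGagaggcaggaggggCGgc
Cacna1e, chr1:154725921-154726170, minus strand: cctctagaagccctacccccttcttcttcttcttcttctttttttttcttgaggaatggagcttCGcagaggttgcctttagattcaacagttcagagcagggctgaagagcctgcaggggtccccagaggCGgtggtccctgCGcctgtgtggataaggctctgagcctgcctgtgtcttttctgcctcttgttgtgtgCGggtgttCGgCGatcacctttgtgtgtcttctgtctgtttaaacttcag
Cacna1d distal, chr14:30491157-30491406, minus strand: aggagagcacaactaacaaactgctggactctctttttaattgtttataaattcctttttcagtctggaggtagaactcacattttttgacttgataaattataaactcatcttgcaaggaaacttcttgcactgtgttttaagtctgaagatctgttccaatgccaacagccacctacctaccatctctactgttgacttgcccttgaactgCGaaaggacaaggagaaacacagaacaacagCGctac
Cacna1d internal, chr14:30353487-30353736, minus strand: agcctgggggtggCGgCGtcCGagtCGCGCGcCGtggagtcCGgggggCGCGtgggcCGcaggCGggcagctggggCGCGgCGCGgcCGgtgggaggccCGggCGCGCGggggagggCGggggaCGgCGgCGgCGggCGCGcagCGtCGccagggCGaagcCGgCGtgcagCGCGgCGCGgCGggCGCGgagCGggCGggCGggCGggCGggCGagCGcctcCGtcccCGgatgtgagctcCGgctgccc
Cacna2d1, chr5:15934441-15934690, plus strand: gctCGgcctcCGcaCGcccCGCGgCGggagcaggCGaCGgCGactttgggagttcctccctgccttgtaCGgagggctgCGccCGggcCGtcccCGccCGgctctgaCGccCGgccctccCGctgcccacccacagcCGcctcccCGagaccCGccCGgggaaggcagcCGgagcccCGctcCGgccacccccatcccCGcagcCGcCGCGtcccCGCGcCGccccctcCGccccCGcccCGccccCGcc

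These promoters differ in base composition. The Cacna2d3 window holds 30 CG sites, that of Cacna2d1 36 and the internal one of Cacna1d 50, where the median of all 32851 windows is 6. The distal Cacna1d window holds 2 and the Cacna1e window 6. This Cacna1e window has its start site at 154725920, inside the annotated gene, and none was held for the annotated 5′ end at 154884785. At least 30 CG sites were present in 7 of the 15 channel gene windows and in 5.94% of all windows. The cut of 30 is also the count of the Cacna2d3 window, and some genes count with several windows. These shares are therefore a description. CG was counted on 1 strand, since it reads the same on both. The nearest transgenic peak was 54.7 kb from the Cacna2d3 window, 17.8 kb from the Cacna1e window and 121 kb from the internal Cacna1d window. The nearest wild-type peak was 166 kb from the Cacna2d3 window and 196 kb from the internal Cacna1d window. Peaks in promoter windows were rare in both lists, with 2 of 32619 windows on the autosomes and X holding a wild-type peak and 19 a transgenic one. Absence from 15 windows therefore does not set the channel genes apart.

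Peaks were present in 6 of the 10 genes. The wild-type list had a peak in 2 of 10 (Cacna1d and Cacna2d3), where 0.911% of all coding genes had one. The transgenic list had a peak in 6 of 10 (Cacna1c, Cacna1d, Cacna1e, Cacna2d3, Cacnb2 and Cacnb4), where 5.69% of all coding genes had one. Cacna1a, Cacna1b, Cacna2d1 and Cacna2d2 had 0 peaks in both. The channel genes are long, from 130 kb in Cacna2d2 to 818 kb in Cacna2d3, and the share of genes with a peak climbed with length. Among the 352 coding genes over 400 kb 22.2% had a wild-type peak and 76.4% a transgenic peak, and among the 638 of 200 to 400 kb the shares were 5.96% and 38.1%. Among the 1435 of 100 to 200 kb it was 2.44% and 15.3%. Summed over the 10 genes, the shares of their length classes come to 1.34 genes for the wild-type list and 5.27 for the transgenic one. The counts of 2 and 6 are near these sums, so having a peak is not particular to the channel genes once length is considered.

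**Figure D1:**
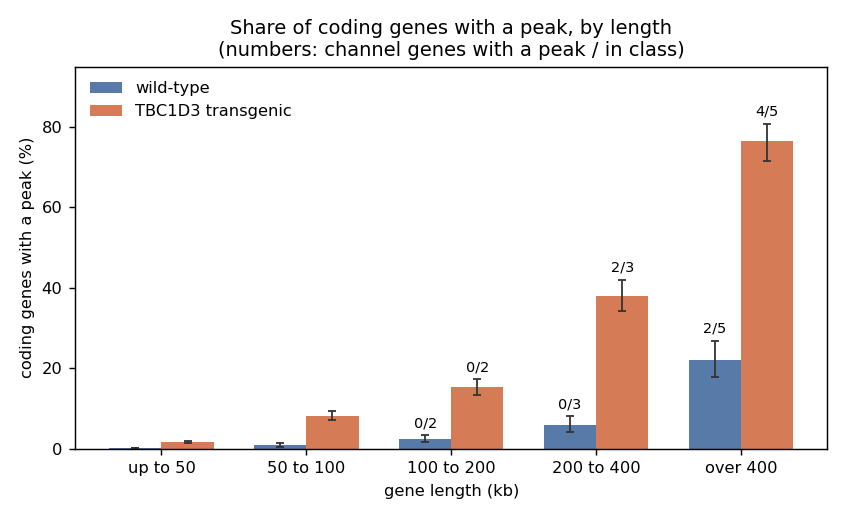
Share of coding genes with a peak (%, y axis) by gene length in kb (x axis) for the wild-type (blue) and transgenic (orange) lists, with exact binomial 95% intervals as bars. The numbers above give channel genes with a peak over channel genes in the class, such as 4/5 for transgenic peaks over 400 kb, where the share of all genes is 76.4%.

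Cacna2d3 held more peaks than any other channel gene in both libraries. It encodes an α2δ subunit and lies on the minus strand at chromosome 14, 28904943 to 29722775 (GRCm38). The wild-type list had 3 peaks in it (95% interval 0.619 to 8.77) and the transgenic list 9 (4.12 to 17.1). At the mean density of chromosome 14 it would hold 0.317 and 2.20. The gene was picked for its peaks, which the intervals do not allow for, so nothing is read from their distance to that mean. Of the 352 coding genes over 400 kb, 5 held at least 3 wild-type peaks and 6 at least 9 transgenic peaks, Cacna2d3 among both.

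The 3 wild-type peaks of Cacna2d3 were small. The strongest, at 29349524 to 29349594, rested on 8 fragments with a fold enrichment of 4.25 (−log10 p 4.91). The second, 3.41 kb away at 29346053 to 29346109, rested on 5 fragments (fold 3.53). The remaining one, at 29555711 to 29555767 and nearest the promoter, rested on 6 fragments (fold 3.74). All 3 had a q of 1. Measured from the 5′ end they lay, in the order given, at 45.6%, 46.1% and 20.4% of the gene.

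The 9 transgenic peaks of Cacna2d3 lay mostly toward its 3′ end. The strongest, at 29003420 to 29003539, rested on 9 fragments with a fold of 4.53 and shared the lowest q of the list, 0.0673. Its neighbour at 28992972 to 28993082 rested on 8 fragments (fold 3.89, q 0.132). Next toward the promoter came a group of 3 peaks, at 29054521 to 29054631, 29055237 to 29055370 and 29063667 to 29063863. They rested on 7, 7 and 6 fragments, with folds of 3.70, 3.51 and 3.49. The first pair of this group stood 0.605 kb apart, the smallest gap in any channel gene. These 5 peaks occupied the stretch from 80.6% to 89.2% of the gene. The remaining 4, at 61.9%, 54.4%, 52.2% and 27.9%, rested on 6, 6, 5 and 7 fragments, with folds of 3.34, 3.14, 2.96 and 3.68. Of the 9 peaks 0 overlapped Lrtm1, a coding gene nested inside Cacna2d3, and 1 lay within 2 kb of the pseudogene Gm6043.

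Wild-type and transgenic peaks of Cacna2d3 did not share positions. The closest pair, at 29346053 and 29295400, was 50.5 kb apart. The wild-type peak at 29555711 was 61.3 kb from the transgenic one at 29494245. The stretch with 5 transgenic peaks held 0 wild-type peaks, the nearest lying 282 kb away. How often peaks of the whole lists share positions is not given here. No trait of this or another channel gene is therefore read from the lack of shared positions.

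**Figure D2:**
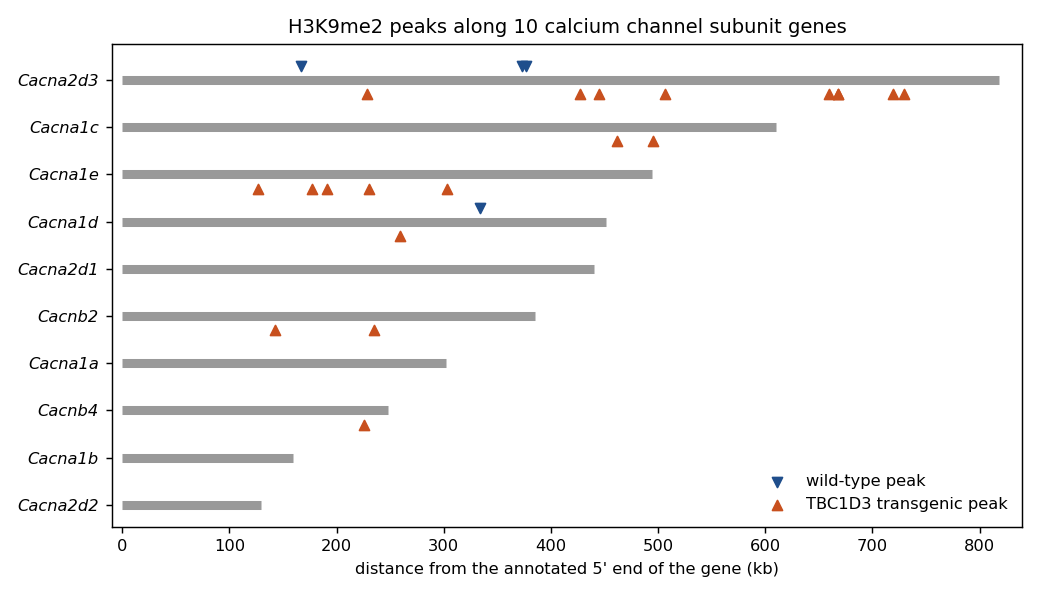
Peak positions along each channel gene, with distance from the annotated 5′ end in kb on the x axis and 1 gene per row. Blue triangles are wild-type and orange triangles transgenic peaks. Cacna1a, for which no strand was held, is drawn from its lower coordinate. Cacna2d3 carries 3 wild-type and 9 transgenic peaks, and 4 genes carry 0.

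Cacna1d, an L-type α1 subunit, was the other gene with peaks in both libraries. It lies on the minus strand at chromosome 14, 30039941 to 30491156, 317 kb from Cacna2d3. Its wild-type peak, at 30157607 to 30157663, rested on 7 fragments with a fold of 3.83 and a q of 1. Its transgenic peak, at 30232063 to 30232178, rested on 8 fragments with a fold of 4.53 (q 0.0742). The peaks lay 74.4 kb apart, at 73.9% and 57.4% of the gene, so here too no position was shared. The mean density of chromosome 14 gives 0.176 wild-type and 1.22 transgenic peaks, both within the interval of a count of 1 (0.0253 to 5.57). These counts were known when the gene was chosen, so no likeness to the mean is read.

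Seen as a single span from Cacna2d3 to Cacna1d (28902943 to 30493156, chosen after its values were seen), the region held 5 wild-type and 12 transgenic peaks. The mean density of chromosome 14 gives 0.614 and 4.25 there. The ratios were 8.14 (95% interval 2.64 to 19.0) and 2.83 (1.46 to 4.94). The intervals do not allow for the choice of span and genes, so these ratios support no excess. Between the genes lay 1 wild-type peak, at 29907111 to 29907184 (5 fragments, fold 3.58), and 2 transgenic peaks. The latter lay 54.1 and 60.7 kb from the promoter side of Cacna2d3, with folds of 3.82 and 3.17. Transgenic peaks thus stood on both sides of the Cacna2d3 start site, the nearest one inside the gene lying 228 kb from it.

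**Figure D3:**
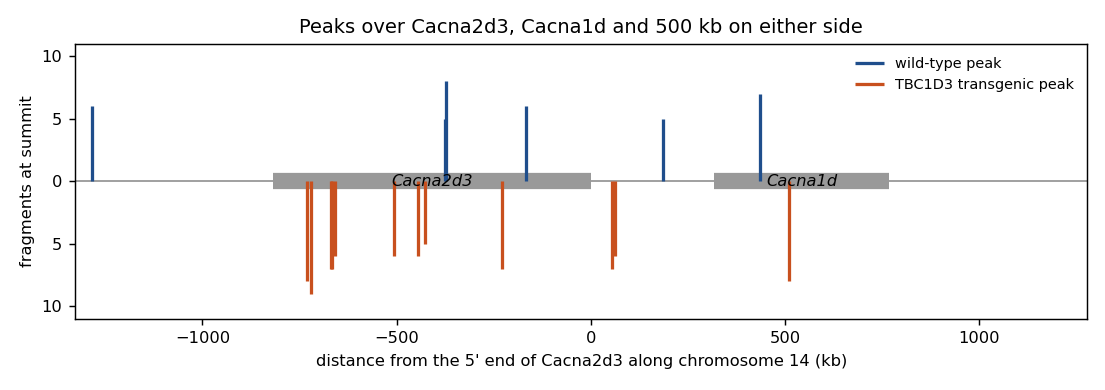
Peaks over Cacna2d3, Cacna1d and 500 kb on either side, with distance in kb from the 5′ end of Cacna2d3 on the x axis. Line height is the number of fragments at the summit, upward for wild-type (blue) and downward for transgenic peaks (orange). The tallest wild-type line has 8 fragments and the tallest transgenic line 9.

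Cacna1e, the R-type α1 subunit, held 5 transgenic peaks (95% interval 1.62 to 11.7) and 0 wild-type peaks. It lies on the minus strand at chromosome 1, 154390806 to 154884785, where the mean density of chromosome 1 gives 1.34 transgenic peaks and 0.111 wild-type peaks. Both counts are among those known when the genes were chosen, so neither tests for a departure from that density. Of the 352 coding genes over 400 kb, 44 held at least 5 transgenic peaks, and 8 had more per Mb than Cacna1e. The strongest channel gene peak of the series was here, at 154581557 to 154581675, with 10 fragments and a fold of 5.28 (−log10 p 7.64, q 0.0673, rank 48 by p in its list). A peak at 154758330 to 154758440 also rested on 10 fragments, with a fold of 4.50 and the same q.

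The other 3 peaks of Cacna1e stood between these. Those at 154654086, 154693662 and 154708047 rested on 8, 7 and 8 fragments and had folds of 4.08, 3.82 and 3.03. The last had as many fragments as the one at 154654086 but a local background of 1.97 fragments against 1.21. The 5 peaks spanned 25.6% to 61.4% of the gene, with gaps from 14.3 to 72.4 kb. The Cacna1e promoter window shown above lies inside the annotated gene, and the peak at 154758330 lay upstream of it by 32.5 kb from the start site. The nearest wild-type peak to any of the 5 was 4032 kb away.

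Cacna1c, the L-type α1 subunit of heart and brain, held 2 transgenic peaks and 0 wild-type peaks at chromosome 6, 118587240 to 119197384. They lay at 118702152 to 118702313 and 118735993 to 118736164, with 8 fragments each and folds of 3.80 and 4.39 (q 0.132 and 0.0742). Both were in the 3′ part of the gene, at 81.2% and 75.6%. The second was 21.9 kb from an internal start site of the gene at 118757974. Chromosome 6 gives 1.56 transgenic peaks at its mean density, within the interval of 0.242 to 7.22. Here too the count was known when the gene was chosen, so no likeness to the mean is read. Of the 352 coding genes over 400 kb, 172 held at least 2.

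The β subunit genes held 3 transgenic peaks and 0 wild-type peaks. Cacnb2, at chromosome 2, 14603861 to 14988811, held 2 with 6 fragments each, at 14745845 to 14745955 (fold 3.73) and 14838466 to 14838583 (fold 3.52). The first also lay in the overlapping noncoding gene Gm13269, and the second 14.4 kb from an internal start site of Cacnb2. Cacnb4, at chromosome 2, 52428320 to 52676609, held 1 peak at 52450733 to 52450843, with 5 fragments and a fold of 3.02 (q 0.363). It stood at 91.0% of the gene and was among the weaker ones, ranking 5389 by p in its list. At its mean density chromosome 2 gives 0.932 transgenic peaks in Cacnb2 and 0.605 in Cacnb4. Both are within the intervals, but the counts were known when the genes were chosen, so no likeness to the mean is read.

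**Figure D4:**
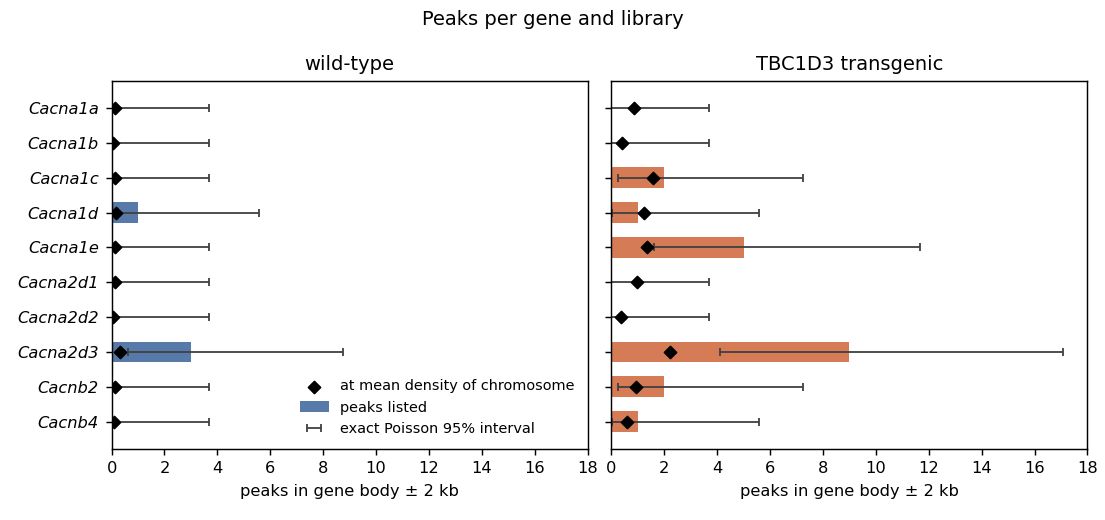
Peaks in each channel gene body extended by 2 kb (x axis) in the wild-type list (left) and the transgenic list (right), with exact Poisson 95% intervals as lines. Black diamonds give the number at the mean density of the gene's chromosome. The highest bars are the 9 transgenic peaks of Cacna2d3 and the 5 of Cacna1e, and since the genes were chosen with these counts known, bars and diamonds are a description.

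The P/Q-type gene Cacna1a, the N-type gene Cacna1b and the α2δ genes Cacna2d1 and Cacna2d2 held 0 peaks in both lists. Together they cover 1.05 Mb, where their chromosomes' mean densities give 0.330 wild-type and 2.56 transgenic peaks. A count of 0 allows up to 3 peaks, taken here as the one-sided 95% limit, or 2.87 per Mb. Two-sided exact intervals of single genes reach 3.69 peaks for a count of 0. A lack of peaks in the gene bodies was thus not detectable. For Cacna1a, Cacna2d1 and Cacna2d2 the surrounding 500 kb on both sides also held 0 peaks of either list. These 3 neighbourhoods, singled out after their values were seen, cover 3.88 Mb, where the mean densities give 1.27 wild-type and 9.71 transgenic peaks. By the same limit of 3 peaks a count of 0 allows up to 0.773 per Mb there. The transgenic means are 2.76, 2.19 and 2.60 per Mb on chromosomes 8, 5 and 9. Because the neighbourhoods were picked for their counts of 0, the limit cannot test for a lower density. Coding genes were many around Cacna1a (50) and Cacna2d2 (33) and few around Cacna2d1 (7), and the part of gene density in these counts was not tested.

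Close to Cacna1b stood a wild-type peak, at chromosome 2, 24599437 to 24599538, with 7 fragments and a fold of 3.83. It lay 4.32 kb from the gene's 3′ end and so just outside the 2 kb limit. Just inside that limit there was no peak: of the 24 peaks in channel genes, the one nearest an edge was that of Cacnb4, 22.5 kb inside the body.

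Summed over the 10 genes, the 4 wild-type peaks stand against 1.27 at the mean densities of their chromosomes, a ratio of 3.15 (95% interval 0.859 to 8.07). The 20 transgenic peaks stand against 10.4, a ratio of 1.92 (1.17 to 2.97). Without Cacna2d3 these ratios were 1.05 (0.0266 to 5.85), from 1 peak, and 1.34 (0.669 to 2.40), from 11 peaks. Without Cacna1e the transgenic ratio was 1.65 (0.926 to 2.73). The genes were chosen with these counts known, so the ratios describe how the peaks are divided among them and support no excess. Transgenic peaks made up 83.3% of the 24 channel gene peaks (62.6 to 95.3) and 89.4% of all peaks. These counts too were known when the genes were chosen, and peaks of 1 gene are not independent. The shares are thus a description, and no likeness is read from them.

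The surroundings, which the choice of genes did not use, held fewer transgenic peaks than the mean density of their chromosomes gives. The flanks of 500 kb, 9.31 Mb in all with the channel genes left out, held 12 transgenic peaks, or 1.29 per Mb. Inside the genes, which were chosen for their peaks, the figure was 4.91 per Mb, and over all coding genes it ran from 0.990 per Mb in those up to 50 kb to 2.92 per Mb in those over 400 kb. The mean densities of the chromosomes give 23.5 in the flanks, and the ratio was 0.511 (95% interval 0.264 to 0.893). The flanks are what is left once the chosen genes, with 20 transgenic peaks against 10.4, are cut out. Flanks of other long genes were not counted, and the interval does not allow for neighbouring peaks that are not independent. No depletion around the channel genes is therefore read from this ratio. The wild-type flanks held 4 peaks against 2.88, a ratio of 1.39 (0.379 to 3.56). The genes with no peak in their neighbourhood contribute to the low transgenic value. The transgenic flank peaks had a median fold of 3.43 and at most 8 fragments, against 3.72 and at most 10 inside the genes.

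Among the neighbours of the channel genes, Erc1 and Erc2 held at least 2 peaks in a list. They encode scaffold proteins of the presynaptic active zone. Erc2, next to Cacna2d3 on chromosome 14, held 3 wild-type and 7 transgenic peaks, where the mean density gives 0.332 and 2.30. Only 1 of these, a wild-type peak at 28437550, lay within 500 kb of Cacna2d3. Erc1, near Cacna1c on chromosome 6, held 2 transgenic peaks, where the mean density gives 0.716.

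Along the genes, 0 of the 24 peaks lay in the 20% of the gene length nearest the 5′ end, which allows a share of up to 12.5% by the limit of 3 counts and 14.2% as the upper bound of the exact 95% interval. The next stretches of 20% held 6, 6, 5 and, at the 3′ end, 7 peaks. Of the last 7, 5 were the transgenic group in Cacna2d3. In the 744 coding genes over 200 kb with a known strand, the 20% nearest the 5′ end held 18.5% of 939 peaks (95% interval 16.1 to 21.2) and the 20% at the 3′ end 19.1%. Peaks in long genes in general were thus spread nearly evenly. In the channel genes the peak nearest the 5′ end, relative to gene length, lay at 20.4% of Cacna2d3, just past the edge of the first stretch. The position along the gene was looked at after the values were seen. Peaks of 1 gene are not independent, and Cacna2d3 alone gave 3 wild-type and 9 transgenic peaks. No lack of peaks in the 5′ part is therefore read as a trait of the channel genes.

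In fold the peaks of the channel genes were near the medians of their lists, and in fragments their medians were above. Their median fold was 3.79 among wild-type and 3.72 among transgenic peaks, against 3.90 and 3.62 over the whole lists. The median transgenic peak rested on 7 fragments in the channel genes, on 7 in the flanks and on 6 in the list. For the 4 wild-type peaks the median was 6.5 fragments, against 6 in the list. Of the 20 transgenic peaks 9 (45.0%) rested on at least 8 fragments, against 21.9% of the list. Among the 4 wild-type peaks 1 did, against 13.7%. The 9 transgenic ones lay in Cacna1c, Cacna1d, Cacna1e and Cacna2d3. Since the genes were chosen with the folds of their peaks known, these values are a description. The lowest transgenic q was listed for 3 of 20, namely 2 in Cacna1e and 1 in Cacna2d3, and for 8.03% of the list. In all 24 the local background exceeded the genome-wide one (0.531 wild-type and 0.841 transgenic fragments), as it did for 93.1% and 90.4% of all peaks.

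**Figure D5:**
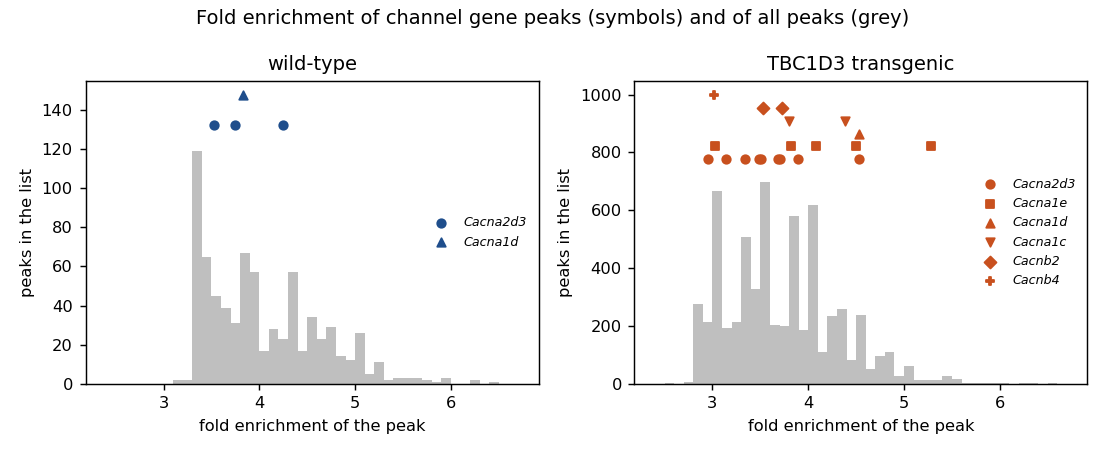
Fold enrichment (x axis) of all peaks in the wild-type list (left) and the transgenic list (right) as grey histograms, with the number of peaks on the y axis. Symbols mark the peaks of each channel gene, placed above the histogram at heights that carry no value. The channel gene peaks run from 3.53 to 4.25 (wild-type) and from 2.96 to 5.28 (transgenic).

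The remaining 16 subunit genes held 0 peaks in both lists. They are the L-type genes Cacna1f and Cacna1s, the T-type genes Cacna1g, Cacna1h and Cacna1i, the α2δ gene Cacna2d4, the β genes Cacnb1 and Cacnb3, and Cacng1 to Cacng8. The Cacng genes encode γ subunits and related proteins, some of which escort AMPA receptors. These genes are short, from 12.1 to 128 kb, and cover 0.964 Mb, so that the mean densities give 0.322 wild-type and 2.32 transgenic peaks. Shares by length class sum to 0.128 and 1.00 genes. By the limit of 3 peaks a count of 0 allows up to 3.11 per Mb. The 10 genes held 0.981 wild-type and 4.91 transgenic peaks per Mb. Since they were chosen for their peaks, no difference from them is read from this limit.

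Among 16 genes for channel partners, 1 held a wild-type and 2 a transgenic peak. Stac, an adaptor that binds L-type channels, held 1 wild-type and 3 transgenic peaks in 129 kb, where the mean density gives 0.046 and 0.346. Rimbp2, which links calcium channels to the release site, held 1 transgenic peak. The longest partner genes, Rims1 (520 kb) and Rims2 (486 kb), which encode active zone scaffolds, held 0 in both lists. Of 6 calcium release channels of the endoplasmic reticulum, 0 held a wild-type and 4 a transgenic peak. Their counts were 3 in Ryr2, 4 in Ryr3, 2 in Itpr1 and 1 in Itpr2, against 1.74, 1.41, 0.870 and 1.01 at the mean densities. Of 19 genes of calcium signalling to the nucleus, 0 held a wild-type peak and 2 a transgenic peak, Camk1d and Nfatc2 with 1 each. The sums of shares by length class were 2.11, 2.52 and 3.02 genes for the transgenic counts of 2, 4 and 2, and 0.516, 0.595 and 0.542 genes for the wild-type counts of 1, 0 and 0.

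Only 2 other coding genes held at least as many peaks as Cacna2d3 in both lists. Fhit, on the same chromosome, held 3 wild-type and 12 transgenic peaks over 1612 kb, and Cdh13 held 3 and 9 over 1185 kb. Both are longer than Cacna2d3, and the mean density of their chromosomes gives 4.32 and 3.28 transgenic peaks. This likeness is over 2 libraries and rests on counts alone.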

How the data were processed

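H3K9me2 was profiled by ChIP-seq in 1 wild-type and 1 TBC1D3 transgenic cortex library. Peak calling by the authors used MACS 2.1.0.20150420, per the file headers, on each library against its own input, at a p cutoff of 0.001, with fragment extensions of 57 bp (wild type) and 111 bp (transgenic). BWA and mm10 are named in the submitters' processing notes. Pileup, a signal the authors deposited, counts fragments at the summit; the file headers say that the larger of ChIP and input was first scaled down. Dividing by that scale gave whole fragments within 0.02 for 100% of peaks. The deposited fold enrichment (a ratio), −log10 p and −log10 q are the authors' values per peak. According to the headers no q would be calculated; the q values listed were used as they are.

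Genes came from a RefSeq table of GRCm38.p6 (49214 genes on chromosomes 1 to 19 and X, after leaving out those starting under 3 Mb), and strand from its promoter table. A peak belonged to a gene when it overlapped the body extended by 2 kb by at least 1 bp. Mean density is a chromosome's peaks over its span from 3 Mb to the last gene. Intervals are exact Poisson (counts) and Clopper-Pearson (shares), two-sided at 95%, computed with scipy 1.17.1. For sums with 0 peaks the one-sided limit of 3 counts is given. No genome sequence was used, so peak sequences were not read. The counting was tested on simulated peaks. The members and gene lists were chosen with earlier results of these data known. Named were all members, other subunit genes by class, list genes with a peak, flank genes with at least 2 peaks in a list, and genes with at least as many peaks as Cacna2d3 in both lists. Lrtm1, Rims1, Rims2 and overlapping noncoding genes were named after their values were seen. Alternatives were stricter peaks, a shortened transgenic list, merging, other extensions, flanks and overlaps, and the autosomal mean density.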

Additional observations from a re-analysis of the deposited data

How the results depend on the processing

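No paired analysis was possible because each genotype has 1 library, and no library could be left out. The low number of fragments per peak and the p cutoff of the lists limit every count. Of 84 comparisons with an alternative setting, 28 moved, that is, a count changed by more than 1.5 times or a ratio left the main counting interval; the other 56 did not, though with few peaks the intervals are wide. Leaving out Cacna2d3 was chosen after seeing the data. It left 1 wild-type peak in 1 gene and 11 transgenic peaks, and the wild-type density ratio went from 3.15 to 1.05. A fold of at least 5 (62 wild-type and 166 transgenic peaks in all) left 0 wild-type peaks in 0 channel genes (ratio 0) and 1 transgenic peak in 1 gene, with a density ratio of 4.01. In the flanks it left 0 peaks in both lists (ratios 0 and 0). A −log10 p of at least 5 left 0 wild-type peaks in the genes and 0 in the flanks (ratios 0), 7 transgenic peaks in the genes and 3 in the flanks. The transgenic list shortened to 743 peaks held 4 peaks in 3 channel genes (ratio 3.47) and 0 in the flanks (ratio 0). These filters shorten the lists by construction. Flanks of 100 kb held 2 wild-type and 2 transgenic peaks, and flanks of 1000 kb held 35 transgenic peaks. The transgenic ratio was 0.395 at 100 kb and 0.759 at 1000 kb, against 0.511, and the wild-type ratio 3.18 and 0.888, against 1.39. The cause was not tested. Peaks in the other 16 subunit genes and positions shared between the lists were 0 under each setting run, edges within 10 kb included. Only the wider edges, the wider gene extension and merging could have changed these counts. The other settings remove peaks or shorten regions, so a count of 0 had to stay 0. Such comparisons are among the 56 that did not move and show no robustness. Without the share over the whole lists, the counts of shared positions are a description.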
